A study of Mus musculus with 4 samples.

Results

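The cells described here were developing neurons of the embryonic mouse arcuate nucleus (ARC) that expressed the transcription factor gene Otp but none of the neuropeptide genes Npy, Agrp and Sst. They were chosen from the counts themselves. A cell barcode was kept when it held 200 to 4500 genes, at most 10% mitochondrial unique molecular identifiers (UMIs, 1 per captured mRNA molecule) and at most 10 Hba-a1 UMIs, and a kept cell was a member when it held at least 2 Otp UMIs, at least 2 UMIs of the neuronal gene Stmn2, fewer than 3 Pomc UMIs and no UMI of Npy, Agrp or Sst. Of 6465 barcodes, 6351 were kept, and 272 of these, or 4.28%, met the rule. They are called peptide-free Otp neurons below, which refers to these 3 peptides only. They were set beside 2 other groups. The peptide-bearing Otp cells, 317 in number, held at least 2 Otp UMIs with at least 1 Npy, Agrp or Sst UMI and fewer than 3 Pomc UMIs. The Otp-negative neurons, 3256 in number, held at least 2 Stmn2 UMIs and no Otp UMI.

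The tissue came from C57BL/6 embryos carrying the Pomc-eGfp transgene at embryonic day 15, in which green fluorescence under control of the Pomc gene outlined the ARC for dissection. The ARCs of 6 embryos were pooled, dissociated with papain and captured on the droplet platform of 10x Genomics as 1 library, which was sequenced in 4 runs. All groups in this report came from that library and shared the transgene, the age and the strain, and no treatment or other genotype was compared. The barcodes were all distinct and were not tied to a run or an embryo.

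Otp encodes a homeodomain protein required for several neurosecretory and peptide-producing cell types of the hypothalamus, among them somatostatin neurons, the vasopressin and oxytocin neurons of the paraventricular and supraoptic nuclei, and the Agrp neurons of the ARC, which release Npy, Agrp and GABA and drive feeding. Such neurons express Otp while they are still developing, and the peptides that name the adult types appear one by one, some of them only around birth.

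Levels are given as pooled CPM, that is, the UMIs of a gene summed over the cells of a group and scaled to a group total of 1000000 UMIs. Each level or share carries a 95% interval from the exact Poisson or Clopper-Pearson method, and each ratio of levels one from the conditional exact binomial method. With 1 library there were no replicates, so no test over samples could be made and the intervals cover counting error only. A gene was called different between groups when its CPM differed at least 2-fold and it held at least 50 UMIs over both groups. The count is of 3' ends, and levels are meant for comparison between groups of cells, not between genes. The peptide-free Otp neurons held 888438 UMIs in all, with a median of 2786.5 UMIs per cell (1771 to 13338) and 1392.5 genes. The medians were 2866 UMIs in the peptide-bearing Otp cells and 3535 in the Otp-negative neurons, and mitochondrial genes took a median of 4.45%, 4.31% and 4.01% of the UMIs. For shares of cells at equal depth, 2167 UMIs were drawn at random from every cell that held as many, which is called thinning. This dropped 40 peptide-free Otp neurons, 30 peptide-bearing Otp cells and 209 Otp-negative neurons.

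The rule drew its line through a continuous range of Otp counts. Of 707 kept cells with at least 2 Otp UMIs, 379 held no Npy, Agrp or Sst UMI. Among these, 102 were left out for fewer than 2 Stmn2 UMIs and a further 5 for 3 or more Pomc UMIs. The members held 2 to 14 Otp UMIs with a median of 3, and their Otp level was 1219 CPM. Just inside the limit on Otp stood 80 members with 2 UMIs, and just outside it stood 153 cells with 1 UMI that met all other limits. On the peptide side, 38 cells with exactly 1 UMI of Npy, Agrp and Sst together fell just outside, while 100 cells held 10 or more. Stmn2 stood at the limit of 2 UMIs in 57 members, and 51 cells with 1 Stmn2 UMI were left out. Pomc was at 0 in 215 members, at 1 UMI in 51 and at 2 UMIs in 6. Among the comparison cells, 51 peptide-bearing Otp cells held fewer than 2 Stmn2 UMIs, and 235 Otp-negative neurons held 3 or more Pomc UMIs. These values describe the selection and carry no test.

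**Figure D1:**
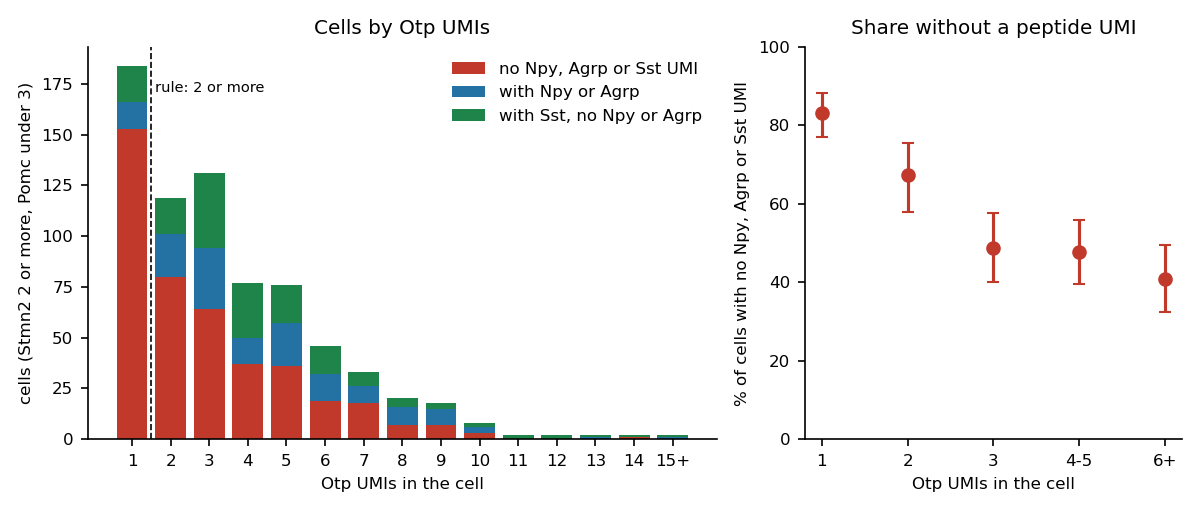
Cells around the limits of the rule, drawn from the counts that chose the members. The numbers of cells at each Otp count and the shares without Npy, Agrp or Sst are plotted, and the share goes from 83.2% at 1 Otp UMI to 40.7% at 6 or more.

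The counts that chose the members are given here as a description of the selection and support nothing. With at least 2 Stmn2 UMIs and fewer than 3 Pomc UMIs, 153 of 184 cells with 1 Otp UMI held no Npy, Agrp or Sst, or 83.2% (76.9% to 88.3%). The share was 67.2% (58.0% to 75.6%) at 2 Otp UMIs, 48.9% at 3, 47.7% at 4 to 5 and 40.7% (32.4% to 49.5%) at 6 or more. The median depth of these 5 sets of cells was 2957, 2725, 2707, 2838 and 3215 UMIs. When the 538 cells with at least 2 Otp UMIs were divided by depth instead, the share free of the peptides was 54.7% (47.2% to 62.2%) in the shallowest 179 cells and 47.2% (39.8% to 54.8%) in the deepest 180, with overlapping intervals. Whether a member had made no peptide message or had one that was missed at this depth cannot be told apart.

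The members carried neuronal genes. Tubb3, a neuronal tubulin, was found in 98.2% of the peptide-free Otp neurons and Dcx, a microtubule protein of migrating neurons, in 72.1%. The shares were 19.8% and 10.1% of 248 non-neuronal cells with a median of 3777.5 UMIs. The non-neuronal cells were chosen by summed markers of other cell types, and the members by the neuronal gene Stmn2 among others. This contrast was therefore set in part by the choice of cells and is a description only. The 29 markers of macrophages, endothelium, mural cells and fibroblasts summed to 68.7 CPM in the members, with 12 of the 29 at 0, compared with 105 CPM in the peptide-bearing Otp cells and 85.9 CPM in the Otp-negative neurons. The 11 cycling markers summed to 83.3 CPM, and no member held 3 or more of their UMIs. The 18 progenitor and tanycyte genes summed to 589.8 CPM in the members, 797 CPM in the peptide-bearing Otp cells, 1004 CPM in the Otp-negative neurons and 3437 CPM in the non-neuronal cells. At least 3 of their UMIs were held by 21.7% of the members, 18.6% of the peptide-bearing Otp cells and 40.2% of the Otp-negative neurons. The 12 pituitary genes summed to 94.5 CPM in the members and 111 CPM and 88.0 CPM in the same comparison groups. Of these, Pou1f1, a pituitary POU factor, was called higher than in both groups, with 17 of its 34 UMIs in 1 member. Haemoglobin and other erythroid genes summed to 286 CPM in the members, 289 CPM in the peptide-bearing Otp cells and 279.5 CPM in the Otp-negative neurons. The part of other cells' RNA in the results was not tested. No doublet caller was run beyond the limit of 4500 genes.

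Of the markers proposed for these cells beside Otp, Isl1 was found in most members, while Calcr and Cbln4 were found in a minority. All 3 were higher than in the Otp-negative neurons and close to or below the peptide-bearing Otp cells. Isl1 encodes a LIM-homeodomain factor required for Pomc and Agrp neurons to mature. It was at 676 CPM (623 to 733) in the peptide-free Otp neurons, at 798 CPM in the peptide-bearing Otp cells and at 121 CPM in the Otp-negative neurons. It was detected in 211 of 272 members, or 77.6%, in 22.6% of the Otp-negative neurons and in 3.63% of the non-neuronal cells, and after thinning in 69.0%, 15.98% and 1.75%. Its log2 ratio was 2.48 (2.35 to 2.62) to the Otp-negative neurons and -0.24 (-0.39 to -0.09) to the peptide-bearing Otp cells. With at least 2 Stmn2 UMIs required of the peptide-bearing Otp cells too, the latter ratio was -0.16 (-0.32 to 0.003). Without 13 members described below, none of which held Isl1, it was -0.12 (-0.27 to 0.03). Both of these intervals included no difference. Isl1 lies on chromosome 13 from 116298281 to 116309689 (GRCm38, minus strand).

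Calcr encodes the calcitonin receptor, which binds amylin when paired with a RAMP protein. Its level was 93.4 CPM (74.4 to 116) in the members, in 56 cells or 20.6%, and 14.6 CPM in the Otp-negative neurons, in 3.84% of cells. After thinning the shares were 12.9% and 2.69%, against 0.439% of the non-neuronal cells. The log2 ratio was 2.68 (2.29 to 3.06) to the Otp-negative neurons and -0.64 (-1.04 to -0.25) to the peptide-bearing Otp cells. Cbln4 encodes a secreted cerebellin that links neurexins to partners across the synapse. It was at 124 CPM (102 to 149) in the members, in 71 cells or 26.1%, and at 16.9 CPM in the Otp-negative neurons, in 5.19%, with thinned shares of 21.1% and 3.25%. Its log2 ratio was 2.87 (2.53 to 3.21) to the Otp-negative neurons, and the ratio of -0.27 to the peptide-bearing Otp cells had an interval from -0.64 to 0.09, which includes no difference. Calcr lies on chromosome 6 from 3685680 to 3764714 and Cbln4 on chromosome 2 from 172036233 to 172043466, both on the minus strand.

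The 250 bases before the start of these 3 genes are shown because the genes stood high together in cells chosen for a homeodomain factor. Both strands were searched for TAAT, the core read by homeodomain proteins, and for ACGTG, the core read by bHLH-PAS dimers, with overlapping matches counted as 1 place. The sequences were matched by symbol to RefSeq on GRCm38.p6 and run 5′ to 3′ along the gene, and capitals mark either core. For Calcr, which has 2 starts in RefSeq, the outer one is printed.
Isl1, chr13:116309689-116309938, minus strand: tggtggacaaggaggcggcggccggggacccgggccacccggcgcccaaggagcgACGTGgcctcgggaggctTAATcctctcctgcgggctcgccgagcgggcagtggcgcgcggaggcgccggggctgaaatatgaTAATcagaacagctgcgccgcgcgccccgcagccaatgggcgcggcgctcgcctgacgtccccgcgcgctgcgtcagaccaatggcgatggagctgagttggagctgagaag
Calcr, chr6:3764714-3764963, minus strand: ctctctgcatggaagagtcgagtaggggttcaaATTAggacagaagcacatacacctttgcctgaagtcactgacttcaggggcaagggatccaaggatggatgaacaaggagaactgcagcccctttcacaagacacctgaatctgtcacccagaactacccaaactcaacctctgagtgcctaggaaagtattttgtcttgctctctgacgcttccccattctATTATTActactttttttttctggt
Cbln4, chr2:172043467-172043716, minus strand: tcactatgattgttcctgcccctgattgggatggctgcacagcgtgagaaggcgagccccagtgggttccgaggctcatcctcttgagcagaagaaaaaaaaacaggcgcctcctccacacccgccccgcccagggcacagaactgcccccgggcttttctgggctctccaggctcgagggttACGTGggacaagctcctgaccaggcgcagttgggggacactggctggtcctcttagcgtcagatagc
TAAT stood at 2 places before Isl1, at 2 before the outer start of Calcr and at none before Cbln4 or the inner start of Calcr. ACGTG stood at 1 place before Isl1 and 1 before Cbln4. Of 32851 promoters of the same length, 54.9% held TAAT and 16.6% held ACGTG, so a match is a description and not a site.

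**Figure D2:**
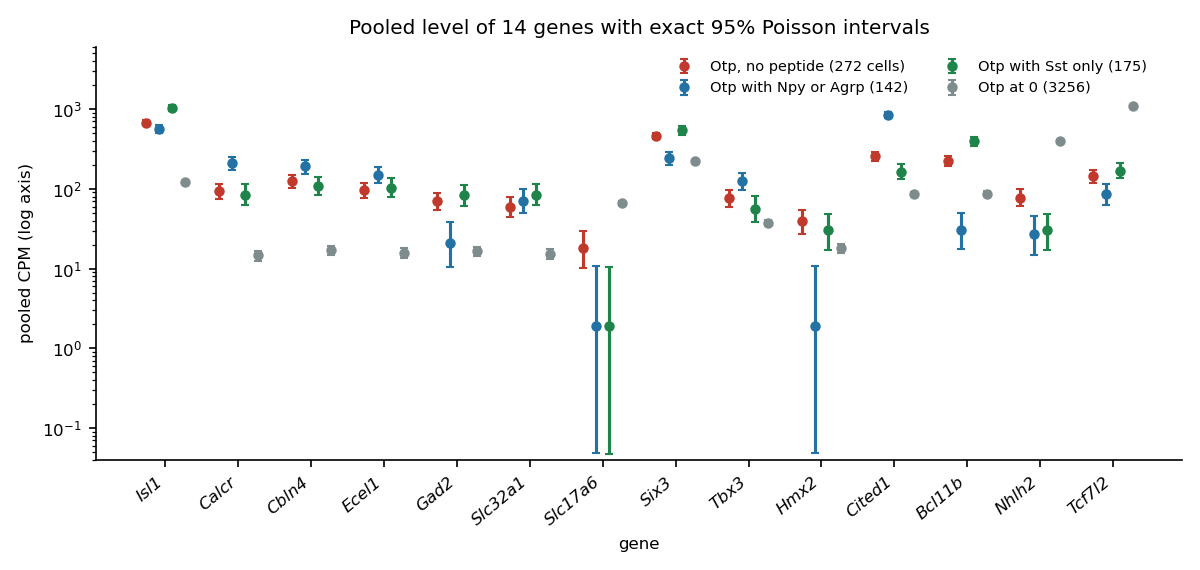
Pooled levels in CPM, with 95% counting intervals, of named genes in the peptide-free Otp neurons, the Otp cells with Npy or Agrp, the Otp cells with Sst alone and the Otp-negative neurons. Isl1, Calcr and Cbln4 are at 676, 93.4 and 124 CPM in the peptide-free Otp neurons and at 121, 14.6 and 16.9 CPM in the Otp-negative neurons.

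Against the Otp-negative neurons, 177 of 10657 genes were called higher in the peptide-free Otp neurons, or 1.66%, and 905 were called lower, or 8.49%. The interval of the ratio lay wholly past 2-fold for 31 of the higher and 93 of the lower genes. The 10 leading genes on the higher side were Cbln4, Calcr, Gm17750, Pdzrn4, Ecel1, Isl1, Ap3b1, Gpc3, Gad2 and Slc32a1. Ecel1, a membrane endopeptidase of the neprilysin family, was at 96.8 CPM in the members and 15.8 CPM in the Otp-negative neurons. Gm17750, a long non-coding RNA, was at 182 and 29.0 CPM, and Pdzrn4, a RING and PDZ domain protein, at 50.7 and 8.08 CPM. Gpc3, a glypican that holds growth factors at the cell surface, was at 77.7 and 15.7 CPM, and it was also found in 54.0% of the non-neuronal cells. Dlk1, a non-canonical Notch ligand, was found in 264 of 272 members at 1602 CPM (1520 to 1687) and in 50.3% of the Otp-negative neurons at 451 CPM, a log2 ratio of 1.83.

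The leading genes on the lower side were Robo2, Fezf1, Pantr1, Irx1, Calb2, Rspo3, Ebf1, Nr4a2, Sox14 and Tcf7l2. Several of these mark neurons of other regions. Tcf7l2, a Wnt effector of thalamus and habenula, was at 143 CPM in the members and 1087 CPM in the Otp-negative neurons, and all 9 genes of the thalamus and habenula list were called lower, with a median log2 ratio of -2.55. These genes summed to 308 CPM in the members and 1909.9 CPM in the Otp-negative neurons, where 1507 of 3256 cells, or 46.3%, held 3 or more of their UMIs. In the members 18 cells did so, or 6.62%. Because so many comparison cells carried these markers, the comparison was repeated, by a choice made after these values were seen, with the 1749 Otp-negative neurons that held fewer than 3 such UMIs. The 18 members with 3 or more such UMIs were kept, so the filter acted on the Otp-negative neurons only. Then 90 of 9090 genes were called higher, or 0.99%, and 427 lower, or 4.7%. Of 5 genes tested on the thalamus and habenula list, Kitl, Pou4f1 and Lhx9 were now called higher and none lower. Isl1, Calcr and Cbln4 had log2 ratios of 1.82, 1.87 and 3.03 in that comparison, and the leading genes were Gm17750, Cbln4, Pdzrn4, Ap3b1, Nyap2, Calcr, Ecel1, Gpc3, Isl1 and Cntfr.

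The genes of ventromedial hypothalamic neurons were low in the members. Of 6 genes on that list, 5 were called lower than in the Otp-negative neurons and none higher, and 5 of 5 tested were called lower with the cells of thalamus and habenula markers left out. Fezf1, a zinc-finger factor of the ventromedial nucleus, was at 4.50 CPM in the members and 50.5 CPM in the Otp-negative neurons. Nr5a1, the nuclear receptor that defines that nucleus, was at 3.38 and 31.1 CPM, and Sox14, a factor of ventromedial and Kisspeptin neurons, at 11.3 and 87.2 CPM.

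Among 18 factors of the arcuate and tuberal field, 17 could be compared with the Otp-negative neurons, of which 6 were called higher and 6 lower, with a median log2 ratio near 0. Six3, a homeodomain factor of the anterior and tuberal hypothalamus, was at 459 CPM (416 to 506) and found in 168 members, or 61.8%, compared with 37.0% of the Otp-negative neurons. Its relative Six6 was at 306 CPM in 53.3% of the members. Tbx3, a T-box factor that maintains Pomc and Agrp identity, was at 76.5 CPM and 37.3 CPM, Prox1 at 101 and 42.9 CPM, and Hmx2, which with Hmx3 is needed for Ghrh neurons, at 39.4 and 18.1 CPM. On the lower side Nhlh2, a bHLH factor of Pomc and Kisspeptin neurons, was at 77.7 CPM against 399 CPM, and 17 of its 69 UMIs in the members came from 1 cell. Nkx2-1, which sets up the tuberal hypothalamus, was within 2-fold at 104 and 177 CPM. With the cells of thalamus and habenula markers left out, Gsx1 alone was called higher on this list and 7 genes were called lower, Nkx2-1 among them. Six3, Tbx3, Hmx2, Prox1 and Tbx19 were thus not called against the Otp-negative neurons without those markers. At least 1 UMI of Nkx2-1, Six3, Six6 or Tbx3 was found in 223 of 272 members, or 82.0% (76.9% to 86.4%), and in 58.1% of the Otp-negative neurons.

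Of 19 factors of the Otp lineage and neurosecretory cells, 16 could be compared, and 2 were called higher and 7 lower than in the Otp-negative neurons. The higher ones were Isl1 and Bcl11b, a zinc-finger factor at 225 CPM in the members and 87.3 CPM in the Otp-negative neurons. With the cells of thalamus and habenula markers left out, 15 could be compared, and 4 were called higher, Isl1, Bcl11b, Pou3f1 and Pou3f2, and 4 lower. Pou3f1, a POU factor at 14 UMIs in the members, turned from a log2 ratio of -1.29 to 1.05, and Nr4a2 and Pou3f3 were no longer called. The call of Pou3f2 rested on 13 members with 10 or more Avp UMIs or any Sim1 UMI, which held 28 of its 33 UMIs. Dlx genes, homeobox genes of forebrain GABA neurons and of the Ghrh and Th neurons of the ARC, were found in 46 members, or 16.9% (12.7% to 21.9%), and in 17.2% of the Otp-negative neurons. They were found in 7.89% (5.17% to 11.4%) of the peptide-bearing Otp cells, in 2.82% of those with Npy or Agrp and 12% of those with Sst alone. Of 15 Dlx and Lhx1 neuron factors, 10 could be compared, and none was called higher. Lhx1 and Sp9 were among those called lower.

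The members carried genes of GABA transmission and few transcripts of the glutamate transporter. At least 1 UMI of Slc32a1, Gad1 or Gad2, the vesicular transporter and the synthesising enzymes of GABA, was found in 103 of 272 members, or 37.9% (32.1% to 43.9%), in 40.7% of the peptide-bearing Otp cells and in 11.9% of the Otp-negative neurons. After thinning the shares were 30.6%, 32.4% and 8.86%. Of the 15 transmitter genes, 8 could be compared with the Otp-negative neurons, and the 3 called higher were these GABA genes. With the cells of thalamus and habenula markers left out, Slc32a1 and Gad2 were called higher and Gad1 was not, at a log2 ratio of 0.52 (-0.15 to 1.14), and the median over the 8 genes was 0.18 in place of 0.90. Slc32a1 was at 59.7 CPM and 15.1 CPM, a log2 ratio of 1.98 (1.51 to 2.42), and in the non-neuronal cells it was found in 0.806% of cells. Gad2 was at 69.8 CPM in the members, 16.4 CPM in the Otp-negative neurons and 21.2 CPM (10.6 to 37.9) in Otp cells with Npy or Agrp. In Otp cells with Sst alone it was at 82.8 CPM, and it was not called against the peptide-bearing Otp cells as a whole.

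Slc17a6, the vesicular glutamate transporter VGLUT2, was at 18.01 CPM (10.3 to 29.2) in the members, from 16 UMIs in 12 cells. It was at 66.7 CPM in 20.8% of the Otp-negative neurons, which gave a log2 ratio of -1.89 (-2.70 to -1.18). The peptide-bearing Otp cells held 2 Slc17a6 UMIs in all, and the log2 ratio to them was 3.24, with a wide interval of 1.15 to 6.41. Ddc and Slc18a2, of amine synthesis and storage, were the other transmitter genes called lower than in the Otp-negative neurons.

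Of 37 neuropeptide precursors and processing genes, 21 had a UMI in the members and the list summed to 4024 CPM. In the Otp-negative neurons the sum was 2481 CPM. Of the 3575 UMIs behind the members' sum, 1334 were of Avp, and 1332 of these lay in 13 cells. At least 3 UMIs of the list were held by 84.2% of the members and 89.9% of the Otp-negative neurons. In the comparison with the Otp-negative neurons 19 genes could be tested, of which 2 were called higher, Avp and Gal, and 8 lower. The lower ones included Ghrh, at 11.3 CPM from 10 UMIs in 3 members against 45.7 CPM, Tac1 at 33.8 against 84.3 CPM, and Cartpt at 4.50 against 14.9 CPM. With the cells of thalamus and habenula markers left out, Tac1 was no longer called, and its log2 ratio went from -1.32 to 0.85. Tac2, Crh, Trh and Kiss1 had no UMI in the members, which, taking 3 counts as the limit that a count of 0 allows, leaves a level of up to 3.38 CPM or a share of up to 1.10% of cells with a UMI. It sets no limit on cells that express them. Th, the rate-limiting enzyme of dopamine synthesis, was at 29.3 CPM in 21 members and at 14.8 CPM in the Otp-negative neurons, just short of 2-fold. Pcsk1n, the prohormone convertase inhibitor proSAAS, was found in 94.9% of the members at 1730.0 CPM and was within 2-fold of the Otp-negative neurons.

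Of the receptors for metabolic hormones, 17 of 38 had no UMI in the members. The thyroid hormone receptor Thra was found in 78.7% of them, at 547 CPM compared with 514 CPM in the Otp-negative neurons. The list summed to 720.4 CPM in the members and 710.4 CPM in the Otp-negative neurons. Of 38 receptor genes, 7 held enough UMIs for the comparison with the Otp-negative neurons, none was called higher and Htr1b was among those called lower. Lepr, the leptin receptor, and Ghr, the growth hormone receptor, each had 2 UMIs in all members together, and Ghsr, the ghrelin receptor, had 1. Insr was at 24.8 CPM and Igf1r at 56.3 CPM, both within 2-fold of the Otp-negative neurons. In the calcitonin receptor system, the partners of Calcr had few UMIs at this depth: Ramp1, Ramp2 and Ramp3, which turn Calcr into an amylin receptor, had 1, 4 and 4 UMIs in the members. Calcrl and the ligand gene Iapp had none.

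The cerebellins differed among themselves. Cbln4 was 1 of 2 genes called higher than in the Otp-negative neurons among 20 tested of the 25 trans-synaptic organisers, together with the presynaptic receptor Nrxn3 at 176 and 79.8 CPM. Cbln1 was called lower at 43.9 and 115 CPM, and Cbln2 at 82.2 and 408 CPM. With the cells of thalamus and habenula markers left out of the Otp-negative neurons alone, Cbln2 was called higher in the members, so its direction depended on that choice. Nrxn3 was then no longer called, at a log2 ratio of 0.75. Of 46 axon guidance and adhesion genes, 41 were tested, 2 were called higher and 13 lower. With the thalamus and habenula cells left out, 34 were tested, 4 were called higher, Efnb2, Pcdh7, Cntn2 and Cdh11, and 6 lower. The higher ones in the first comparison were Efnb2, an ephrin ligand at 54.0 and 18.2 CPM, and the protocadherin Pcdh7 at 97.9 and 28.6 CPM. Robo2, a Slit receptor, was at 4.50 CPM from 4 UMIs in the members and 61.9 CPM in the Otp-negative neurons, a log2 ratio of -3.78 (-5.66 to -2.42), and its low level held with the thalamus and habenula cells left out, at -3.95. Robo1 was at 32.6 and 100.3 CPM, but within 2-fold in that second comparison.

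Against the peptide-bearing Otp cells the peptide-free Otp neurons differed in few genes. Of 5148 genes tested, 24 were called higher, or 0.466%, and 24 lower, or 0.466%, and the interval lay wholly past 2-fold for only 3 of them, Avp and Calb1 on the higher side and Fabp7 on the lower. The median log2 ratio over all genes was -0.02. Of 35 neuron maturation genes, 32 were tested and none was called in either direction, with a median log2 ratio of 0.04. The synaptic genes Snap25 and Syt1 were at 200.4 and 222 CPM in the members and at 207 and 222 CPM in the peptide-bearing Otp cells. Gap43, a growth cone protein, was at 1002 CPM (937 to 1070) against 1244 CPM, a log2 ratio of -0.31 (-0.44 to -0.19). Of 13 dissociation and immediate-early genes, 10 were tested and none was called. On this list Atf3 alone was called, as higher, against the Otp-negative neurons and against Otp cells with Npy or Agrp.

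The leading genes on the higher side were Calb1, Pde12, Cnr1, D930016D06Rik, Nr2f2, Mast4, Derl2, Zfp536, Gnl3 and Carf. Nr2f2, the orphan nuclear receptor COUP-TFII, was at 75.4 CPM in the members and 30.5 CPM in the peptide-bearing Otp cells, a log2 ratio of 1.31 (0.68 to 1.96). Cnr1, the cannabinoid receptor CB1, was at 51.8 and 19.98 CPM, a ratio of 1.37 (0.60 to 2.19) on the log2 scale. Igfbpl1, a gene of newborn neurons, was at 132 CPM and 61.9 CPM, the 1 gene of 8 tested on its list that was called. On the lists of field factors, Hmx2, Nhlh2 and Dlx2 were called higher, with log2 ratios of 1.28, 1.44 and 1.21, on 35, 69 and 39 UMIs in the members. Against Otp cells with Sst alone, Nhlh2 was called higher, but Nr2f2, Igfbpl1, Hmx2 and Dlx2 were not. Nr2f2 and Igfbpl1 were called higher against Otp cells with Npy or Agrp.

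The leading genes on the lower side were Enpp5, Rnf112, Fam167a, Spon1, Gfra2, Map1a, Gpx3, 2900055J20Rik, Ntng1 and Baiap3. Gpx3, a secreted glutathione peroxidase, was at 57.4 CPM in the members and 146 CPM in the peptide-bearing Otp cells. Baiap3, a protein of dense-core vesicle traffic, was at 28.1 and 69.5 CPM. Fabp7, a fatty acid binding protein of radial glia, was at 40.5 and 125 CPM, a log2 ratio of -1.62 (-2.20 to -1.08), although it was found in 7.72% and 7.89% of the cells, so the difference lay in the UMIs of a few cells. The peptide-bearing Otp cells had no limit on Stmn2, and 51 of them held fewer than 2 of its UMIs, unlike any member. The effect of this on Fabp7 was not tested. Foxp1 was called lower among the field factors, at 88.9 CPM against 183 CPM. Scg2, a secretogranin of dense-core vesicles, was at 84.4 and 167 CPM, a log2 ratio of -0.98 (-1.39 to -0.58) just short of the call.

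The peptide-bearing Otp cells were themselves mixed, with 142 cells that held Npy or Agrp and 175 that held Sst alone. Between these subsets, without use of the members, 94 of 3297 genes were called higher in cells with Npy or Agrp, or 2.85%, and 46 lower, or 1.4%. For 30 of them the interval lay wholly past 2-fold, 17 on the Npy and Agrp side and 13 on the Sst side. The peptide-free Otp neurons lay between the levels of the subsets for all 17 genes of the first side and for 10 of the 13 of the second. Genes chosen for levels far apart leave much room between them, and the Otp-negative neurons also lay between for 12 of the 17 and 9 of the 13, so the placing is a description and not particular to the members. Placed on a scale where 0 is the Sst level and 1 the Npy and Agrp level, they had a median position of 0.352. On the Npy and Agrp side, Cited1, a transcriptional coregulator, was at 841 CPM in cells with Npy or Agrp, 257 CPM in the members and 164 CPM in cells with Sst alone. Gpx3 and Gabra5, a GABA receptor subunit, stood close to the Sst level, at positions of 0.0993 and 0.0182, while Syt4, a synaptotagmin of dense-core vesicles, stood at 0.804.

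On the Sst side, Bcl11b was at 395 CPM in cells with Sst alone, 225 CPM in the members and 30.8 CPM in cells with Npy or Agrp. Its relative Bcl11a was at 149, 131 and 40.4 CPM, and Nkx2-1 at 209, 104 and 63.5 CPM. Avp, Fam19a2 and Gm17750 were the 3 genes whose level in the members lay beyond that of the Sst cells. For Avp the levels rested on few cells, since 1 cell held 193 of the 197 UMIs of the Sst cells and 13 members held 1332 of 1334, without which the members were at 2.45 CPM. The members were called higher than cells with Npy or Agrp for 42 of 4116 genes, or 1.02%, and lower for 49, or 1.19%. Against cells with Sst alone the numbers were 36 of 4078, or 0.883%, and 18, or 0.441%. Each of these comparisons used the same members, so the counts are not independent of each other.

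**Figure D3:**
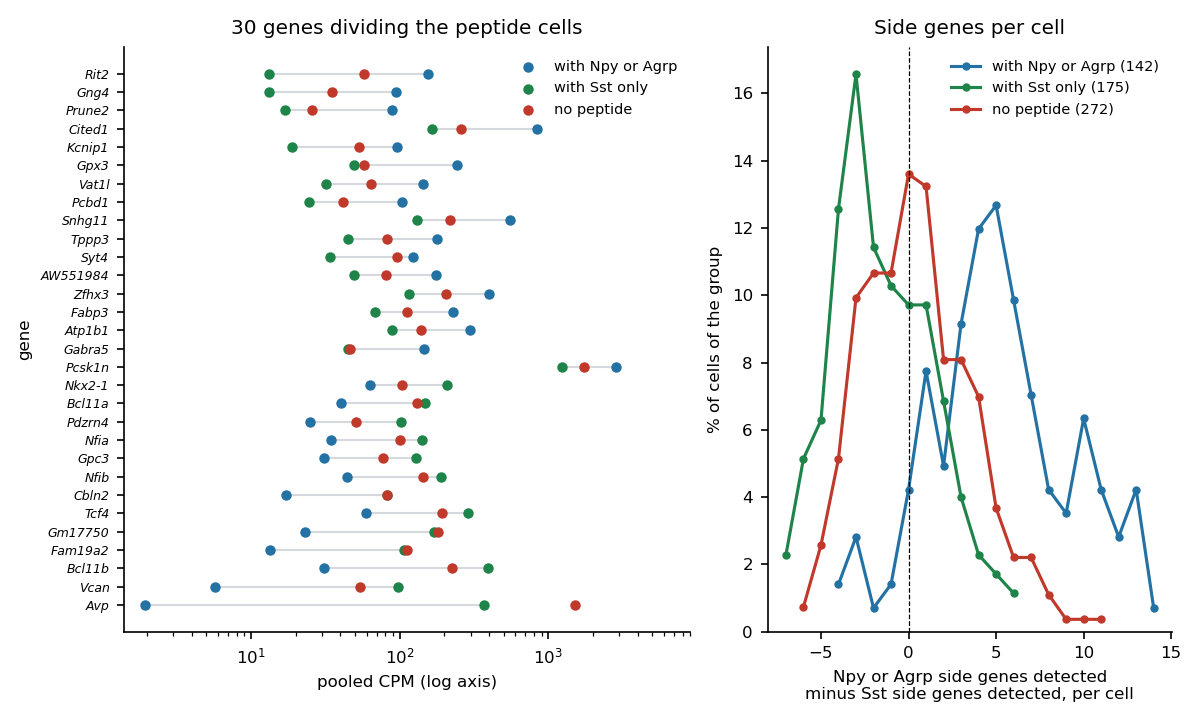
The genes that separate Otp cells with Npy or Agrp from Otp cells with Sst alone, as pooled CPM on a log axis in those cells and in the peptide-free Otp neurons, and the percentage of cells of each group by the number of Npy and Agrp side genes minus Sst side genes detected. For 27 of 30 genes the peptide-free level lies between the others, as the Otp-negative neurons do for 21, and for Avp, whose Sst level rests on 1 cell, Fam19a2 and Gm17750 it lies beyond the Sst level.

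The genes of both sides were also counted in each cell, with Avp and Pcsk1n left out. Of the 272 members, 127, or 46.7%, held more of the 16 genes of the Npy and Agrp side, 108, or 39.7%, held more of the 12 genes of the Sst side, and 37 held equal numbers. The lists were of unequal length and had been chosen on the cells with Npy or Agrp and the cells with Sst alone, so in those a majority on their own side was fixed by the choice and is no reference for the members: 127 of 142, or 89.4%, and 113 of 175, or 64.6%. At least 2 genes of each side were found in 113 members, or 41.5%, in 38.9% of cells with Sst alone and in 23.9% of cells with Npy or Agrp.

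Pairs of genes were also counted within the members. For 17 genes chosen after the levels were seen, giving 136 pairs, the number of members holding both was set against the number expected from each gene's share within 5 groups of cells of like depth. The interval of observed over expected lay above 1 for 9 pairs and below 1 for 12. These are descriptions over cells of 1 library that share its depth, with intervals for each pair on its own. Cited1 met Calcr in 36 members where 19.9 were expected, a ratio of 1.81 (1.27 to 2.50), Tbx3 at a ratio of 1.81 (1.23 to 2.57) and Cbln4 at 1.43 (1.002 to 1.98). Bcl11b met Ecel1 at a ratio of 1.68 (1.12 to 2.41), Pdzrn4 at 1.69 and Gad2 at 1.61.

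Some pairs were fewer than expected. Cited1 and Bcl11b met in 7 members where 22.4 were expected, a ratio of 0.313 (0.126 to 0.644). Calcr met Bcl11b in 5 members, a ratio of 0.349 (0.113 to 0.814), and Gad2 in 3, a ratio of 0.285 (0.0588 to 0.833). The pair Pdzrn4 and Tbx3 was found in 1 member against 5.74 expected. The genes did not fall into closed sets. Calcr met Tbx3 at a ratio of 1.18 (0.609 to 2.06), Pdzrn4 at 0.868 and Ecel1 at 0.676, and Cited1 met Ecel1 at 0.815, with intervals that all held 1. Cbln4 met Bcl11b at 0.917 (0.524 to 1.49), Gad2 at 1.06, Pdzrn4 at 1.38 and Ecel1 at 1.37, also with intervals that held 1, and Isl1 met Calcr in 43 members with 43.1 expected. Of the genes found with Cited1 above expectation, Calcr, Cbln4 and Tbx3 were each at a higher level in Otp cells with Npy or Agrp than in those with Sst alone. Of those found with Bcl11b, Gad2 and Pdzrn4 were higher in cells with Sst alone, whereas Ecel1 was at 150 CPM in cells with Npy or Agrp and 103.5 CPM in cells with Sst alone.

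**Figure D4:**
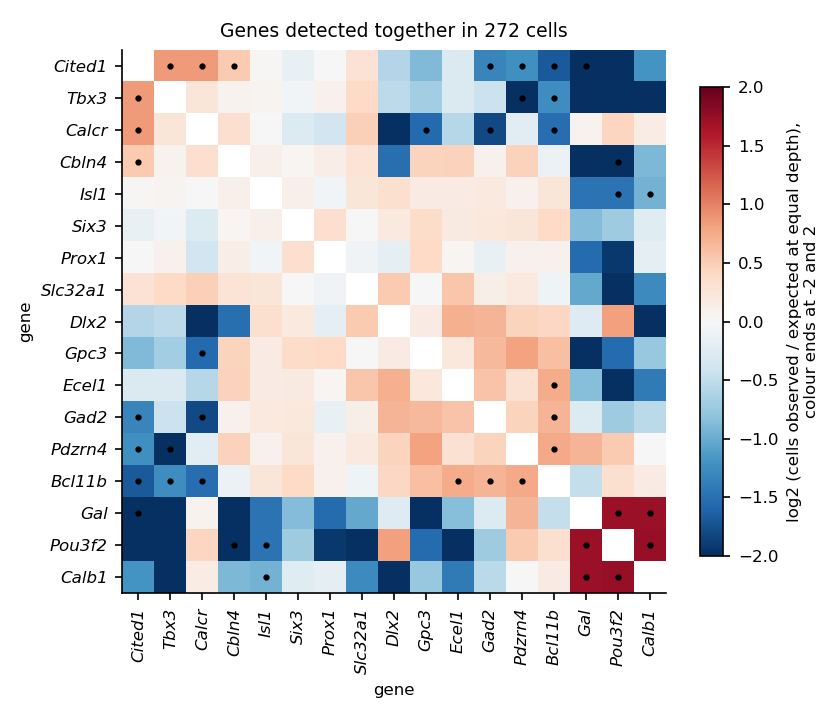
Observed over expected numbers of peptide-free Otp neurons that hold both genes of a pair, for 17 genes. Colour gives the log2 of the ratio and dots mark pairs whose interval leaves out 1. Cited1 meets Calcr and Tbx3 more often than expected (1.81 for each pair) and Bcl11b less often (0.313), and Calb1, Pou3f2 and Gal meet each other more often (3.33 for Calb1 and Pou3f2).

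A small number of members held most of the members' UMIs of Avp, Pou3f2 and Gal. Avp, which encodes vasopressin and lies on chromosome 2 from 130580620 to 130582554, was at 1502 CPM in the members, but 1332 of its 1334 UMIs came from 13 cells. These were set apart, after the values were seen, as members with at least 10 Avp UMIs or any Sim1 UMI. They made up 4.78% of the members, held 2513 to 13338 UMIs with a median of 4619, and so were deeper than the rest. In 8 of them the Avp counts were 430, 419, 197, 114, 105, 29, 18 and 16 UMIs, and 3 of the 13 held none. Sim1, the bHLH-PAS factor that with its partner Arnt2 is required for vasopressin and oxytocin neurons, was found in 10 of the 13. Over all kept cells, 79.3% of Avp UMIs lay in the members, and 10 of the 12 cells with a Sim1 UMI were members. Of Pou3f2 and Gal the members held 4.17% and 23.1% of all kept UMIs, and the Otp-negative neurons 60.4% and 50%. Of the 11 kept cells with at least 10 Avp UMIs, 8 were members, 1 was a peptide-bearing Otp cell with 193 Avp UMIs and 1 Sst UMI, and 2 held 1 Otp UMI.

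These 13 cells differed from the other 259 members in genes that did not choose them. Isl1 was found in none of the 13 and in 211 of the 259. Slc32a1, Gad1 and Gad2 were found in none, and in 39.8% of the others. Dlx genes, Cbln4 and Cited1 were also at 0 in the 13 cells, and were found in 17.8%, 27.4% and 35.9% of the others. By the same limit 0 of 13 cells allows a share of cells with a UMI of up to 23.1%. The Dlx share of the others lies within that limit, so no difference in Dlx genes was shown. Nkx2-1, Six3, Six6 or Tbx3 was found in 2 of the 13, those of 9085 and 13338 UMIs, and in 221 of the 259, or 85.3%. Pou3f2, the POU factor Brn2 needed for the same neurosecretory neurons, had 28 of its 33 UMIs in the 13 cells. Gal, the peptide galanin, had 32 of 36 and Calb1, a calcium-binding protein, 43 of 74, with the other 31 UMIs outside the 13 cells. Resp18, an endocrine secretory granule protein, was found in all 13 cells with 95 of its 239 UMIs. Oxt, the oxytocin gene, had 3 UMIs in the members, all in these cells, and 6 in all kept cells.

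**Figure D5:**
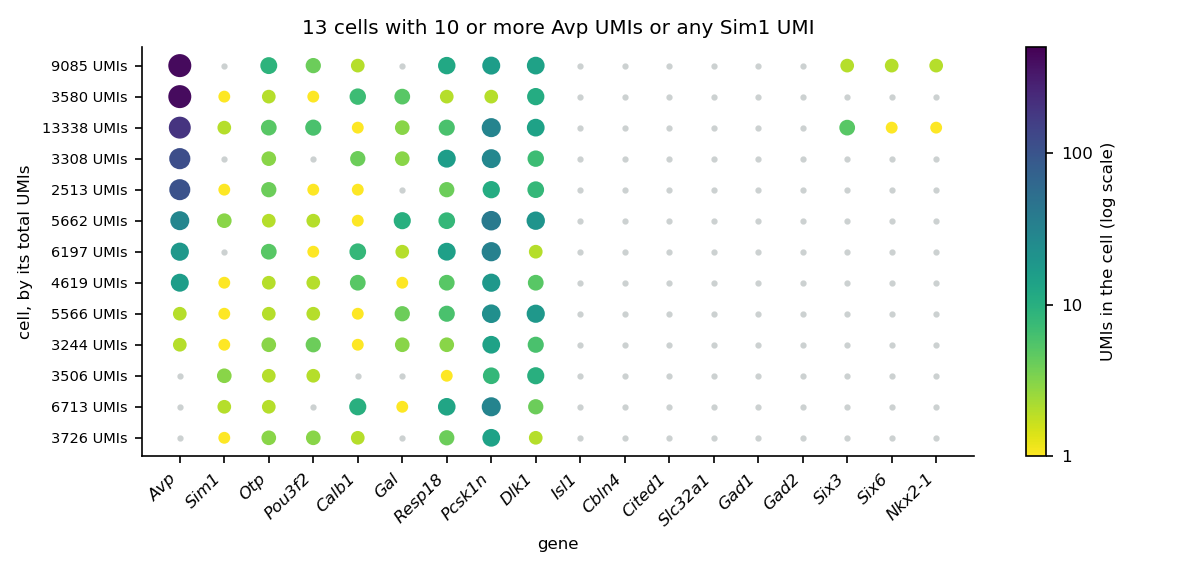
UMIs of 18 genes in each of the 13 peptide-free Otp neurons with 10 or more Avp UMIs or any Sim1 UMI, 1 row a cell, with dot size and colour rising with the count and grey for 0. Avp ranges up to 430 UMIs in a cell, and Isl1, Cbln4 and the GABA genes are at 0 in all 13.

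The promoter of Avp is shown because it is the peptide gene that sets these cells apart, with the same marks as above.
Avp, chr2:130582589-130582838, minus strand: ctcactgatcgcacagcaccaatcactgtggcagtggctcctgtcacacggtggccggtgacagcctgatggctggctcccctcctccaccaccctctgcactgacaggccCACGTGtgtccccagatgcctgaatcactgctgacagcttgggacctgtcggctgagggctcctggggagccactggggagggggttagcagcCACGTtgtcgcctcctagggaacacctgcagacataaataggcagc
ACGTG stood at 2 places in it and TAAT at none.

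The 13 cells carried several of the differences given above. Without them, 18 of 5016 genes were called higher than in the peptide-bearing Otp cells and 28 lower, and the log2 ratio of Calb1 was 1.15 (0.26 to 2.07) in place of 2.28 (1.52 to 3.11). The cells were taken from the members alone, and the peptide-bearing Otp cell with 193 of that group's 198 Avp UMIs stayed in, so Avp turned from 2.99 to -6.27 (-9.32 to -4.39). Gal was then at a log2 ratio of -0.31 to the Otp-negative neurons, with an interval of -2.22 to 1.11, and Pou3f2 at -2.60 (-4.23 to -1.37). Nr2f2 and Cnr1 were at 1.36 and 1.22 against the peptide-bearing Otp cells, Isl1 at 2.61 and Cbln4 at 2.99 against the Otp-negative neurons, and Slc17a6 at 3.27 and -1.86 against the 2 groups in turn.

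A further 48 members held neither Isl1 nor the marks of those 13 cells. Their median depth of 2766 UMIs was like that of the 211 members with Isl1, at 2755 UMIs. GABA genes were found in 14 of the 48, or 29.2% (17.0% to 44.1%), and in 42.2% (35.4% to 49.2%) of the members with Isl1. After thinning the shares were 12.2%, or 5 of 41 cells, and 37.1%. Nkx2-1, Six3, Six6 or Tbx3 was found in 34 of the 48, or 70.8%, and in 88.6%. Dlx2 had 1 UMI in the 48 cells and 38 in the 211, or 6.77 and 56.7 CPM. Zfhx3, a zinc-finger homeodomain factor, went the other way, at 359 CPM in the 48 cells and 188 CPM in the members with Isl1.

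Levels were also set against the number of Otp UMIs, whose limit the rule had set at 2. In cells that met all other limits, Isl1 was at 89.6 CPM with 0 Otp UMIs, 303 CPM with 1, 607 CPM with 2, 684 CPM with 3, 670.4 CPM with 4 to 5 and 760.0 CPM with 6 or more. Calcr was at 13.4, 24.0, 68.8, 74.9, 119 and 112 CPM in the same order, and Dlk1 at 399, 841, 1472, 1588, 1595 and 1778 CPM. Tcf7l2 ran from 1186 and 799 CPM at 0 and 1 Otp UMI to between 84.9 and 171 CPM at 2 or more. The 153 cells with a single Otp UMI thus stood between the cells without Otp and the members in all 4 genes. Among the members, the interval at 2 Otp UMIs overlapped that at 6 or more for each of these 4 genes, so no trend within the members is read from them. From 2 to 6 or more Otp UMIs, Ecel1 was at 133, 115, 76.4 and 58.5 CPM, Gad2 at 89.0, 59.9, 72.1 and 53.6 CPM and Cbln4 at 138, 105, 136 and 112 CPM, and for each gene the interval at 2 overlapped that at 6 or more. Detection of Otp chose the members and the comparison groups, so the genes found with it are a description that overlaps with the levels given above. Over all 4006 kept cells with at least 2 Stmn2 UMIs, of which 750 held Otp, the 5 genes found together with Otp most often for their depth, among 7217 genes, were Calcr at 2.81 times the expected number (2.397 to 3.28), Cbln4 at 2.66, Ecel1 at 2.59, Ap3b1 at 2.57 and 2900055J20Rik at 2.21.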

How the data were processed

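Droplet libraries were counted by the authors with Cell Ranger 2.1.1, with reads aligned by STAR 2.4.0 to mm10. The deposited matrix holds raw UMI counts, not normalized, for 27998 genes and 6465 barcodes. All 26277265 UMIs belong to 1 library, so nothing below is replicated. Counts were summed per group and scaled to CPM in Python 3.11.15 with numpy 2.4.6, scipy 1.17.1 and pandas 2.3.3. Scripts were tested on simulated data. Genes of the rule were left out of all gene counts.

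The members, gene lists and tests were chosen with earlier results of these data known. The lists were reused from that work or written with it in view, so they give no independent support. Named genes are members of those lists and, per comparison, the 10 genes of largest ratio in each direction among those detected in 10% or more of the cells of the higher group, with 20 or more UMIs there. Genes were matched to GENCODE vM21 by symbol. Alternatives changed 1 limit, depth, weighting or cell filter at a time. A few list members are counted but not reported here by name.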

Additional observations from a re-analysis of the deposited data

How the results depend on the processing

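Of 172 values recomputed under 15 alternatives, 2 of them chosen after seeing the data, none reversed a called direction, 147 stayed close and 25 moved. They cover the number of members, the counts of genes past 2-fold and the ratios of Isl1, Calcr, Cbln4, Slc17a6 and Slc32a1. Among other genes, Cbln2 and Pou3f1 were among those that turned from lower to higher when Otp-negative neurons with thalamus and habenula markers were left out. Members with those markers were kept in that comparison. Of 130 log2 ratios, 129 kept their sign, the exception being Cbln4 against the peptide-bearing Otp cells, at 0.13 (-0.40 to 0.65) after thinning. The number of members was 425 with Otp at 1 UMI or more, 137 with Stmn2 at 5 or more and 176 after thinning. Genes past 2-fold against the peptide-bearing Otp cells, 48 in the report, numbered 101 with Otp at 1 or more, 30 with Pomc at 0, 20 after thinning, 322 with a limit of 20 UMIs and 3 with one of 200. Against the Otp-negative neurons, 1082 in the report, they numbered 645 with Otp at 1 or more, 1855 with 20 UMIs, 343 with 200 and 610 with cells of thalamus and habenula markers left out of all groups. With Otp at 1 or more, log2 ratios to the peptide-bearing Otp cells were -0.56 for Isl1 and -1.09 for Calcr, and to the Otp-negative neurons 2.15 for Isl1, 2.20 for Calcr, 2.52 for Cbln4 and -1.08 for Slc17a6. Isl1 against the Otp-negative neurons was 2.33 with Stmn2 at 5 or more, 2.99 with Pomc at 0, 2.70 after thinning and 1.88 with the thalamus and habenula cells left out, where Calcr was 1.98 and Slc32a1 1.27. The cause of these shifts was not tested. No paired analysis was possible because the library was a single group, and no replicate could be left out.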

Other observations

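Ap3b1, a subunit of the adaptor complex AP-3 and 1 of the leading genes above, lies on the same chromosome as Otp. This was noticed after its values were seen, and the 8 measured genes within 1000 kb of Otp on chromosome 13 were then read in order. Tbca, a tubulin folding cofactor that ends 32.7 kb before Otp, was at 1263 CPM in the peptide-free Otp neurons, 1437 CPM in the peptide-bearing Otp cells and 487.5 CPM in the Otp-negative neurons, a log2 ratio of 1.37 (1.28 to 1.47) to the latter. Ap3b1, which ends 309 kb before Otp, was at 70.9, 119.9 and 13.7 CPM in the same order, a log2 ratio of 2.38 (1.94 to 2.80). The remaining 6 genes, Arsb, Scamp1, Wdr41, Zbed3, Aggf1 and F2r, had log2 ratios from -0.49 to 0.02 to the Otp-negative neurons, each with an interval that includes 0. Both higher genes lie before Otp on its own strand. Why these neighbours were higher was not tested.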
